A study of Mus musculus with 12 samples.

Results

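The cytosolic ribosome of the mouse is built from ribosomal RNA and a set of ribosomal proteins, and the genes of those proteins are described here in splenic B cells of 3 mouse groups. Members were all protein-coding genes whose symbol is Rpl or Rps with a number and at most an end letter, with an optional l for a paralogue, together with Rplp0, Rplp1, Rplp2 and Rpsa. S6 kinase genes, Rps19bp1, Rps27l and pseudogenes were left out. The rule found 80 of the 50686 annotated genes, and 78 of them had enough counts to be tested among 17754 genes.

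Poly(A) RNA was sequenced from live spleen cells that carried the B cell surface marker B220 and a fluorescent reporter, with 1 library per mouse. The YC group (n = 3) was the normal control, of genotype YFPstopF/+Cg1Cre/+, sorted as B220+YFP+ cells. The BIC group (n = 3) was Blimp1F/F IKK2castopF/stopF Cg1Cre/+, sorted as B220+GFP+ cells. The pBIC group (n = 6) carried p53F/F in addition and was sorted in the same way. All 3 groups share the Cg1Cre allele, a Cre recombinase driven from the locus of the IgG1 constant region, which is transcribed in germinal centre B cells and some other activated B cells. BIC cells thus combine floxed alleles of Blimp1, a factor needed for plasma cell formation, with a constitutively active IKK2, a kinase of the NF-kB pathway, and in pBIC cells p53 is floxed as well. Per the labels, BIC and pBIC mice serve as models of ABC-DLBCL, a B cell lymphoma of activated B cells. Ages were not given.

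Ribosomal proteins of the large subunit (Rpl) and the small subunit (Rps) are made in the cytoplasm, imported into the nucleolus and assembled with ribosomal RNA. Most of their mRNAs begin with a cytosine followed by a run of pyrimidines, the 5' terminal oligopyrimidine (TOP) motif, through which mTORC1 signalling controls their translation, with Larp1 as a protein that binds the motif. Several ribosomal proteins, with Rpl5 and Rpl11 the best known, also bind MDM2 when they are not in a ribosome and so raise p53, and MYC is a known activator of genes for ribosome production.

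The bases around the annotated start sites were searched for this motif. The windows below come from RefSeq start sites on GRCm38.p6 and hold 15 bases before the start and 15 bases from it onwards, 5' to 3' on the gene's strand. They are shown as examples with and without the motif, from members that rose or fell below and from Rps6, the S6 kinase target, which did not pass the test. Capitals mark a run of at least 5 pyrimidines that opens with C within 5 bases of the start.
Rpl14, chr9:120571502-120571531, plus strand: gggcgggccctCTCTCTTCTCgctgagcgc
Rps2, chr17:24720048-24720077, plus strand: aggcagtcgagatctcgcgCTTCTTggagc
Rps26, chr10:128626492-128626521, minus strand: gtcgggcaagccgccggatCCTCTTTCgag
Rps27, chr3:90213634-90213663, minus strand: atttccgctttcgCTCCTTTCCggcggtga
Rps6, chr4:86857353-86857382, minus strand: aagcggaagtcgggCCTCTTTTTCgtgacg
Rplp0, chr5:115559452-115559481, plus strand: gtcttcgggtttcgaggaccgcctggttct
Rpl11, chr4:136053379-136053408, minus strand: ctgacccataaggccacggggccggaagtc
Of the 60 members in the RefSeq promoter table, 27 (45.0%) had such a run, against 21.2% of 27025 genes. Rplp0 and Rpl11 had none at these annotated starts, which are single positions and can lie some bases from the start used in B cells.

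Total counts per library ran from 33127283 to 47067627. Reads that mapped to more than 1 place were not counted, which matters for this family because its pseudogene copies are many. Markers fixed for B cells were counted in every library for 7 of 7 genes, and their summed level was 8660 to 10300 CPM (counts scaled to 1e6 per library after TMM normalisation) in YC, 9040 to 9540 CPM in BIC and 2520 to 7410 CPM in pBIC. Of these, 3 of 7 were lower in pBIC than in YC and 4 of 7 lower than in BIC, where 10.2% and 8.78% of all genes were called lower. Plasma cell markers fell too, in 3 of 5 genes for pBIC against YC, with sums of 1710 to 2030 CPM in YC, 539 to 1350 in BIC and 440 to 1340 in pBIC. The pBIC sort thus held lower levels of genes that mark B cells themselves, and the BIC libraries held more T cell and NK cell marker RNA than any other library. Neutrophil markers summed to 1.84 to 259 CPM in YC, 56.1 to 1380 in BIC and 4.92 to 75.4 in pBIC, with 7 of 8 lower in pBIC than in BIC and Cxcr2, Mmp8 and Camp at 0 in 1 library each. Macrophage markers summed to 47.7 to 93.6, 176 to 278 and 15.4 to 370 CPM in the 3 groups, T cell markers to 8.09 to 17.7, 38.0 to 117 and 7.09 to 31.1, NK cell markers to 1.60 to 2.07, 8.14 to 12.6 and 0.607 to 7.29, and erythroid markers to 20.1 to 537, 98.2 to 308 and 21.5 to 424. In BIC against YC, 1 of 8 neutrophil, 1 of 8 macrophage, 1 of 6 T cell and 1 of 4 NK cell markers rose, and 1 of 8 macrophage markers fell. Of all genes 3.9% were called higher and 4.97% lower in that comparison. The part of these other cells, and of the lower B cell markers in pBIC, in the results on ribosomal protein genes was not tested.

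Ribosomal protein genes took a larger part of the RNA in the lymphoma models. They held 5.84%, 5.70% and 6.74% of all gene counts in YC 1 to 3, 6.83%, 8.29% and 7.95% in BIC 1 to 3, and 9.73%, 9.90%, 10.5%, 7.90%, 9.58% and 9.10% in pBIC 1 to 6. The YC range lay below the other groups, while pBIC 4 fell inside the BIC range and the other 5 pBIC libraries above it. The group means were 6.09% ± 0.563 (SD, n = 3), 7.69% ± 0.767 (n = 3) and 9.45% ± 0.888 (n = 6), so the mean share was 1.55 times that of YC in pBIC and 1.26 times in BIC. Counting error was far smaller than these steps, with 95% Wilson intervals such as 6.729% to 6.746% in YC 3. No test was made on the summed share, because it is a score over chosen genes. In sorted bulk RNA, a shift in which cells were sampled and a change in RNA per cell cannot be told apart.

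**Figure D1:**
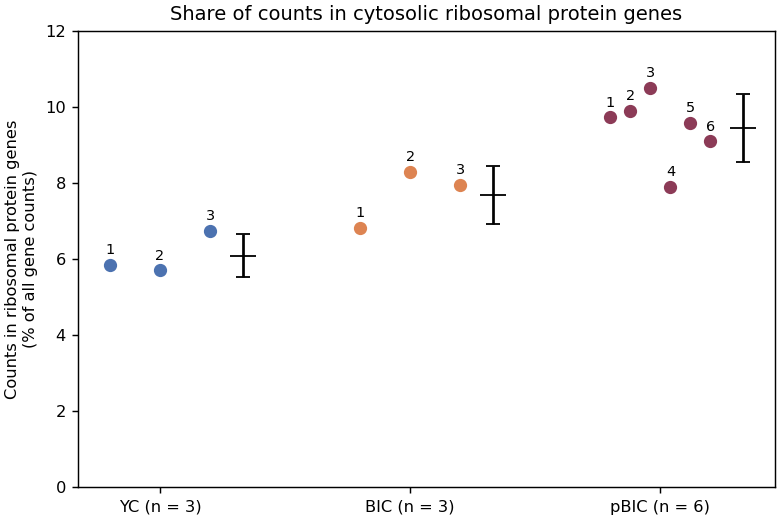
Share of all gene counts (%, y axis from 0) that fell in the 80 ribosomal protein genes, by library, with numbers giving the replicate and bars the mean ± SD of the group. YC libraries lie at 5.70% to 6.74%, BIC at 6.83% to 8.29% and pBIC at 7.90% to 10.5%.

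The same shift was seen across the family rather than in a few genes. Among the 76 members with a mean of at least 20 CPM, the median log2 difference from the YC mean was 0.14, 0.54 and 0.39 in BIC 1 to 3. In pBIC it was lowest in pBIC 4 at 0.25 and otherwise ran from 0.58 in pBIC 6 to 0.78 in pBIC 3. In pBIC 4, 59 of 76 members lay above the YC mean, against 74 or 75 in each of the other pBIC libraries. YC 3 was the highest of the controls, with a median of 0.19 and 76 of 76 members above the YC mean that it helps to set. The median SD of log2 CPM between mice was 0.18 for members and 0.15 for 7338 genes in YC, 0.21 and 0.19 in BIC, and 0.26 and 0.38 in pBIC, so the members varied less than other genes in pBIC only.

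Levels were also taken per kb of annotated exon and averaged over the 12 libraries. Apart from Rpl13a, Rpl24 and the tissue-restricted paralogues, they ran from 103 to 3780 CPM per kb. The length used covers all annotated exons of a gene, such as 499 bases for Rplp1 and 6270 for Rps15a. The order of members thus depends on annotation too. Rplp1 was highest at 3780 CPM per kb, followed by Rplp0 at 2170, Rpl8 at 2030, Rps15 at 1890, Rps24 at 1650 and Rpl4 at 1630. At the low end were Rpl36al at 103, Rpl13a at 25.8 and Rpl24 at 3.03 CPM per kb. These levels depend on how much of each gene can be counted uniquely, and Rpl24 held only 1531 counts in all 12 libraries. Of its exon bases 47.0% lie in the overlapping annotated gene Gm28037, and 80.1% of the 100-base windows of its transcripts recur in transcripts of other genes, so its level here is no measure of its expression. Rpl13a shares 35.4% of its exon bases with the annotated gene Gm45713 and is uncertain in the same way.

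**Figure D2:**
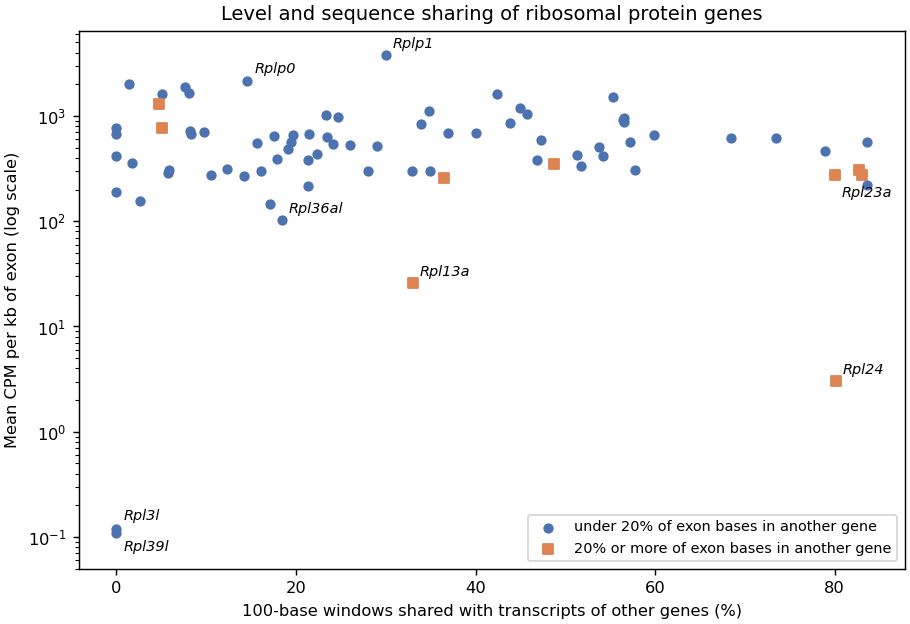
Mean level per kb of exon (CPM per kb over 12 libraries, log scale) against the percentage of 100-base transcript windows that recur in transcripts of other genes, 1 point per member with counts, with squares for members that share at least 20% of exon bases with another gene. Rpl24 at 3.03 and Rpl13a at 25.8 CPM per kb lie far below most members, and the tissue-restricted paralogues Rpl3l and Rpl39l lie lowest.

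Shared sequence was common. Of the 80 members, 73 shared at least 1 window of 100 bases with a transcript of another gene and 20 shared over 50% of their windows, with a median of 24.4%. Rps6 and Rpl36a shared most, with 83.6% of windows each. Exon bases were shared by 36 members, and 9 shared at least 20%, among them Rpl35 (66.2%, with Wdr38), Rpl23a (62.3%, with Tlcd1), Rpl5 (26.7%, with Fam69a) and Rps25 (24.8%, with Trappc4). Counting used no strand, so reads on the shared bases cannot be assigned to the member or to the neighbour. Whether such reads were left out or counted was not examined, so their effect on a member's level is not known. Antisense partners are in the same position.

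In pBIC against YC, 37 of 78 members tested rose and 0 fell, beside 11.8% of all genes called higher and 10.2% lower (edgeR quasi-likelihood test, adjusted p under 0.05). The log2 fold change was positive for 77 members, and its median was 0.63, against 0.10 over all genes tested. The libraries of the groups did not overlap for 39 members, all higher in pBIC, where 12.9% of all genes were higher and 13.2% lower in every pBIC library. Both subunits took part, with 20 of 45 genes of the large subunit, 14 of 30 of the small subunit and 3 of 3 stalk genes called higher, at median log2 fold changes of 0.63, 0.60 and 0.93. Rps27 alone had a negative value, and it did not pass the test. The number of calls rested on the controls: it was 16 without YC 1 and 11 without YC 2, while 5.5% and 4.7% of all genes were then called higher. The calls for Rpl4, Rpl11, Rpl14, Rpl32, Rpl36, Rplp0, Rplp1, Rps2, Rps25 and Rps26 were among those that held without any of the 12 libraries in turn and under every other setting tried.

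**Figure D3:**
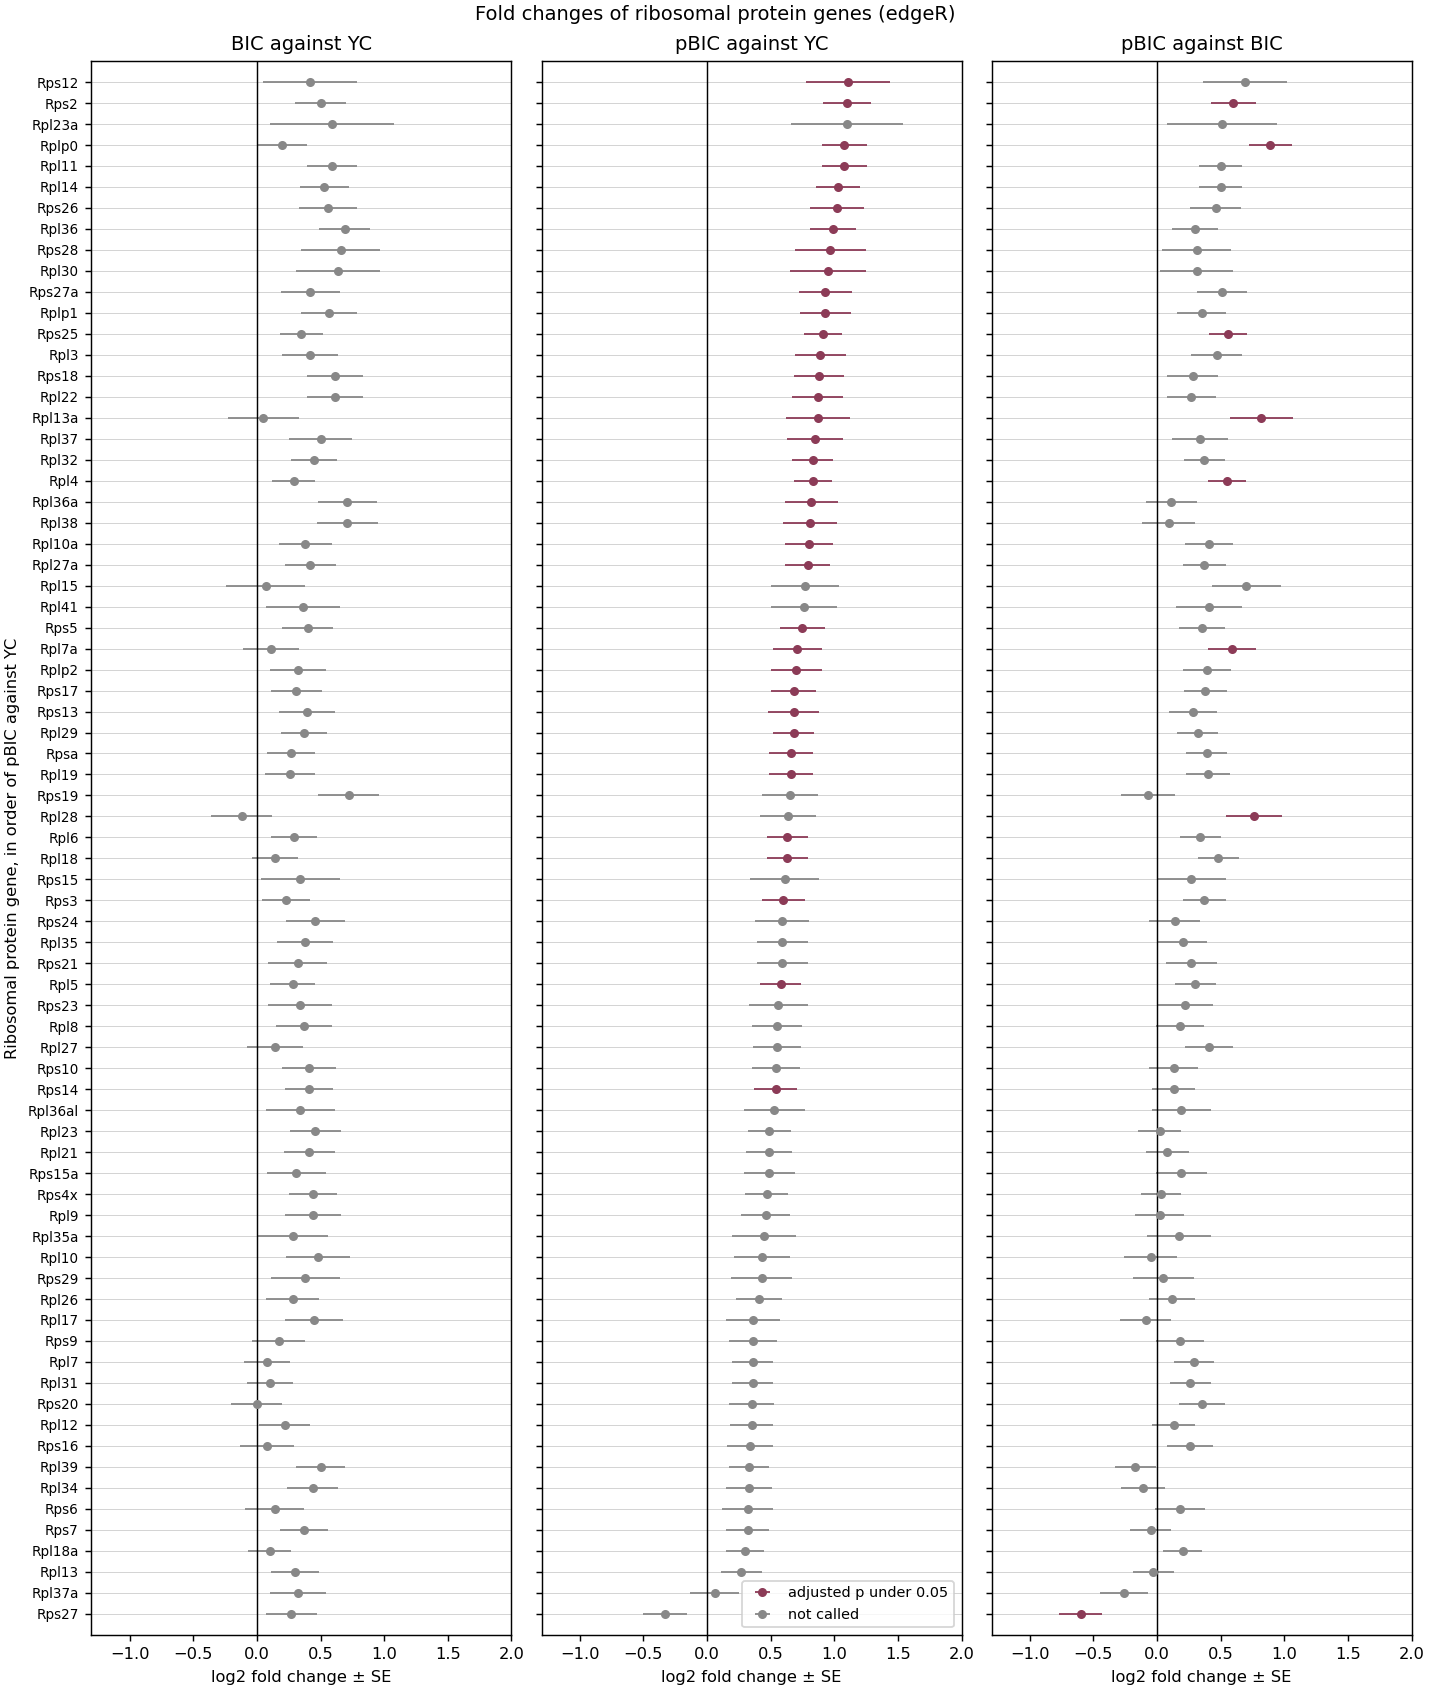
Log2 fold change ± SE of members with at least 20 CPM in each comparison, ordered by pBIC against YC, with coloured points for edgeR adjusted p under 0.05 and grey points for the rest. Nearly all members lie to the right of 0 in pBIC against YC, with Rps27 at -0.33 as the exception, and no member shown is coloured in BIC against YC.

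Most members had higher values in BIC than in YC, but none passed the test. In BIC against YC, 0 of 78 members were called in either direction, beside 3.9% of all genes higher and 4.97% lower. Unadjusted p was under 0.05 for 17 members and for 4565 of all genes, and DESeq2 called 5 members higher beside 8.22% of all genes. The log2 fold change was positive for 76 members, with a median of 0.37 against 0.01 over all genes, and 25 members were higher in every BIC than in every YC library, where 21.9% of all genes were and 23.2% were lower. The 2-group fit, without pBIC, called 16 members higher beside 14.6% of all genes, so the absence of calls depended on which libraries entered the fit.

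In pBIC against BIC, 7 of 78 members rose and 1 fell, beside 10.9% of all genes called higher and 8.78% lower. The share of members called was thus near that of all genes. The members that rose were Rplp0, Rpl4, Rps25, Rps2, Rpl28, Rpl13a and Rpl7a, and Rps27 fell. The median log2 fold change was 0.28, against 0.09 over all genes, and 67 members had a positive value. Without overlap between the libraries, 7 members were higher and 1 lower, where 11.7% and 9.9% of all genes were. Only the Rplp0 call held without each library in turn and under every setting. The count of members that rose was 1 without BIC 1, 2 without BIC 2, 1 without BIC 3, 4 without YC 1, YC 2, pBIC 2 or pBIC 5, 3 without YC 3 or pBIC 3, and 16 without pBIC 4. The share of all genes called higher moved too, to 3.97%, 4.55% and 6.33% without BIC 1, BIC 2 and BIC 3. The 3 comparisons share libraries, so they are no independent repeats of each other.

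The stalk of the large subunit, made of Rplp0 with Rplp1 and Rplp2, recruits the GTPases that drive translation. Rplp0 (ENSMUSG00000067274.10, chromosome 5, 115559467 to 115563727, GRCm38) held the most counts of all members. It was measured at 2200, 2050 and 2520 CPM in YC, 2310, 2770 and 2690 CPM in BIC, and 3650 CPM at the lowest, 4800 at the median and 5720 at the highest in pBIC. Every pBIC library lay above every YC and BIC library, while YC and BIC overlapped. Rplp0 rose in pBIC against YC by a log2 fold change of 1.08 ± 0.18 (SE, adjusted p = 0.00169) and against BIC by 0.89 ± 0.17 (adjusted p = 0.00576), and BIC against YC gave 0.20 ± 0.19 (adjusted p = 0.564). Rplp1 measured 1110, 1120 and 1370 CPM in YC, 1420, 2040 and 1880 in BIC, and 1740 to 2820 with a median of 2280 in pBIC. YC lay below all other libraries, and BIC and pBIC overlapped. Rplp1 rose in pBIC against YC (0.93 ± 0.20, adjusted p = 0.00639) but did not pass against BIC (0.35 ± 0.19, adjusted p = 0.210). Rplp2 rose against YC by 0.70 ± 0.20 (adjusted p = 0.0241), with YC 3 at 1020 CPM above pBIC 4 at 993 CPM, and the call was lost without YC 1 (adjusted p = 0.123) or YC 2 (adjusted p = 0.10).

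Rpl11 and Rpl5, which enter the large subunit together with 5S ribosomal RNA and bind MDM2 outside it, were higher in pBIC to different extents. Rpl11 (ENSMUSG00000059291.15, chromosome 4, 136028265 to 136053428) measured 628, 626 and 776 CPM in YC, 921, 1240 and 888 CPM in BIC, and 1090 to 1620 with a median of 1470 CPM in pBIC. YC lay below both models, and BIC 2 reached into the pBIC range. It rose in pBIC against YC by 1.08 ± 0.18 (adjusted p = 0.00181), and the values of 0.59 ± 0.20 for BIC against YC (adjusted p = 0.0871) and 0.50 ± 0.17 for pBIC against BIC (adjusted p = 0.0640) did not pass. In BIC against YC Rpl11 passed with DESeq2 (adjusted p = 0.0385) and in the 2-group fit (0.0345). Rpl5 measured 866, 845 and 1030 CPM in YC, 1000, 1290 and 1040 in BIC and 1150 to 1720, median 1350, in pBIC. It rose against YC by 0.58 ± 0.16 (adjusted p = 0.0242), a call that was lost without YC 1 (adjusted p = 0.101) or YC 2 (adjusted p = 0.118), and part of its exons overlaps Fam69a.

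Rpl23, Rps7 and Rpl26, also linked to MDM2 or p53 mRNA, did not pass the test in any comparison in the edgeR fit to all 12 libraries. For Rpl23, another MDM2 binder, pBIC against YC gave 0.49 ± 0.17 (adjusted p = 0.0654). Rpl23 passed there with DESeq2 (adjusted p = 0.0424), without pBIC 4 (0.0241) and in the fit to libraries numbered 1 to 3 without a replicate block (0.0282). The value for Rps7, which also binds MDM2, was 0.32 ± 0.17 (adjusted p = 0.191). Rpl26, known to bind p53 mRNA, gave 0.41 ± 0.18 (adjusted p = 0.134), and its pBIC range of 561 to 947 CPM overlapped the YC values of 620, 500 and 622 CPM. Trp53 itself, the deleted gene, had mean levels of 141, 143 and 23.7 CPM in YC, BIC and pBIC and fell in pBIC against both (-2.58 and -2.59, adjusted p = 0.000191 and 0.000583). Mdm2 fell in pBIC against YC (-0.82 ± 0.26, adjusted p = 0.0423) and did not pass against BIC (-0.49 ± 0.26, adjusted p = 0.211). A list of 6 genes held Trp53, Mdm2, Mdm4, Cdkn2a, Cdkn1a and also Myc. In pBIC against YC 1 rose (Cdkn2a) and 2 fell (Trp53 and Mdm2), beside 11.8% and 10.2% of all genes. In pBIC against BIC 2 rose (Cdkn2a and Myc) and 3 fell (Trp53, Mdm4 and Cdkn1a), beside 10.9% and 8.78% of all genes. Trp53 is the gene floxed in pBIC, so its place among those that fell follows from the design.

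**Figure D4:**
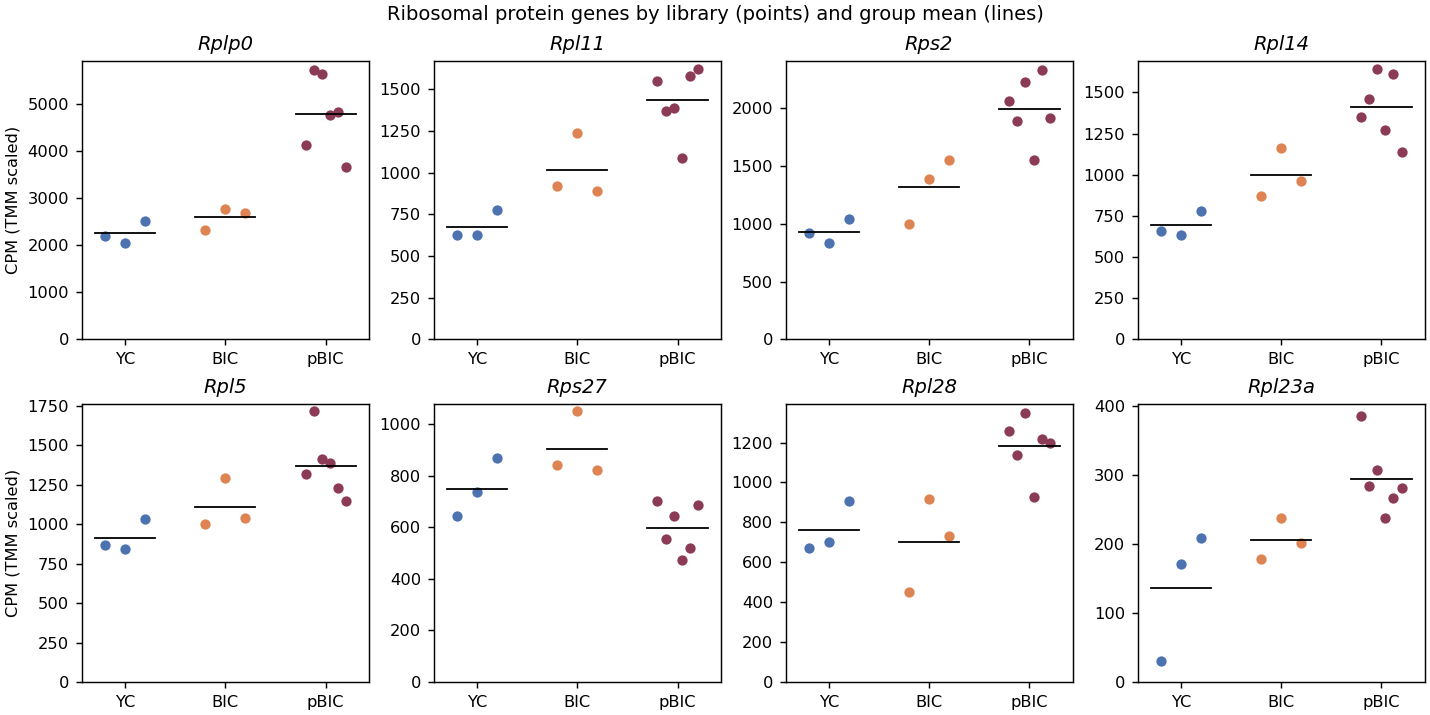
CPM after TMM normalisation (linear axes from 0) of 8 members in every library, with points for libraries and lines for group means. Rplp0, Rpl11, Rps2 and Rpl14 lie higher in every pBIC library than in any YC library, Rps27 lies lower in pBIC than in BIC, and YC 1 stands at 29.9 CPM for Rpl23a.

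Large fold changes were spread over both subunits. Rps2, at the mRNA entry side of the small subunit, measured 917, 829 and 1040 CPM in YC, 1000, 1390 and 1550 in BIC and 1550 to 2330, median 1990, in pBIC. It rose in pBIC against YC by 1.10 ± 0.19 (adjusted p = 0.00205) and against BIC by 0.60 ± 0.18 (adjusted p = 0.0376), the latter call being lost without any of 9 of the 12 libraries (adjusted p up to 0.182). Rpl14 (chromosome 9, 120571444 to 120574654) was at 660, 634 and 781 CPM in YC, 869, 1160 and 963 in BIC, and 1140 to 1640, median 1400, in pBIC. All pBIC values exceeded all YC values, and pBIC 6 at 1140 fell just below BIC 2. The log2 fold change against YC was 1.03 ± 0.17 (adjusted p = 0.00176), and against BIC it was 0.50 ± 0.17 (adjusted p = 0.0512).

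Rps26, which lines the mRNA exit channel, rose against YC by 1.02 ± 0.21 (adjusted p = 0.00556), from 454 to 611 CPM in YC to 660 to 1230 CPM in pBIC. Rpl4, whose extended loop lines the peptide exit tunnel, was at 2270, 2030 and 2500 CPM in YC, 2360, 3110 and 2840 in BIC and 3360 to 4670 in pBIC, with a median of 4070. It was higher in all pBIC libraries than in all others and rose against YC (0.83 ± 0.15, adjusted p = 0.00317) and BIC (0.55 ± 0.15, adjusted p = 0.0270). The call against BIC was lost without BIC 1, BIC 2, BIC 3 or YC 3 (adjusted p from 0.0504 to 0.141). Rps25, a small subunit protein used by some viral internal ribosome entry sites, rose against YC (0.91 ± 0.15, adjusted p = 0.00205) and BIC (0.56 ± 0.15, adjusted p = 0.0232). The latter was lost without BIC 1 (adjusted p = 0.120), BIC 2 (0.0858) or BIC 3 (0.0705). Rpsa, the small subunit protein also known as the laminin receptor precursor, rose against YC by 0.66 ± 0.17 (adjusted p = 0.0146), which was lost without YC 1 (adjusted p = 0.0709) or YC 2 (0.0879). Rps6, the small subunit protein that S6 kinases phosphorylate downstream of mTORC1, had 768, 721 and 874 CPM in YC and 589 to 1230 CPM in pBIC and did not pass (0.32 ± 0.20, adjusted p = 0.280). Its 589 CPM was that of pBIC 6, and the other pBIC libraries, at 936 to 1230 CPM, lay above all YC values. It passed without pBIC 6 (0.45, adjusted p = 0.0491). It also passed in the fit to libraries numbered 1 to 3 without a replicate block (0.51, adjusted p = 0.0474).

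Rps27 ran opposite to the family in pBIC. This small subunit protein (ENSMUSG00000090733.6, chromosome 3, 90212522 to 90213651) was at 645, 736 and 867 CPM in YC, 840, 1050 and 823 CPM in BIC, and 474 at the lowest, 598 at the median and 702 at the highest in pBIC. Every pBIC library was below every BIC library, and pBIC overlapped YC. Rps27 fell in pBIC against BIC by 0.60 on the log2 scale (SE 0.17, adjusted p = 0.0277), and against YC the value was -0.33 ± 0.17 (adjusted p = 0.184). The call against BIC was lost without BIC 1 (-0.65, adjusted p = 0.0695) or BIC 2 (-0.51, adjusted p = 0.122), and in fits to the libraries numbered 1 to 3, which have 3 pBIC mice (-0.51, adjusted p = 0.0804). The log2 difference of Rps27 from its own YC mean was 0.69 to 1.21 lower than that of the median member in the 6 pBIC libraries, and between 0.24 lower and 0.04 higher in BIC. Its paralogue Rps27l, a known p53 target gene outside the symbol rule, had mean levels of 22.6, 52.2 and 74.0 CPM in YC, BIC and pBIC and rose in pBIC against YC (1.71 ± 0.40, adjusted p = 0.0105). Rpl37a was the next lowest member, at 0.06 ± 0.19 in pBIC against YC (adjusted p = 0.840) and -0.26 ± 0.19 against BIC (adjusted p = 0.349).

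The promoters of the members called higher and lower against BIC with the smallest p in each direction, Rplp0 and Rps27, are shown as the 100 bases before the RefSeq start, 5' to 3' on the gene's strand (GRCm38.p6). Capitals mark any match on either strand to the E-box CACGTG, the YY1 motif AAGATGGC, the ETS motif CCGGAAG, the TATA box TATAAA or the GC box GGGCGG, with no overlapping matches in these lines.
Rplp0, chr5:115559367-115559466, plus strand: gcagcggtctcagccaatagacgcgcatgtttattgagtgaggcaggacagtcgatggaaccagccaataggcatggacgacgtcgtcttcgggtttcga
Rps27, chr3:90213649-90213748, minus strand: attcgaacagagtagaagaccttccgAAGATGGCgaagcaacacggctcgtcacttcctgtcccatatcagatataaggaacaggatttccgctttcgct
Rps27 held AAGATGGC, and Rplp0 held none of the 5 in these bases. Over 300 bases, from 250 before to 50 after the start, AAGATGGC was found in 5 of 60 members (8.3%) and 3.2% of all genes. The ETS motif CCGGAAG was in 24 members (40%, against 9.9%), the GC box GGGCGG in 36 (60.0%, against 38.2%), the E-box CACGTG in 6 (10%, against 8.1%) and TATAAA in 6 (10%, against 15.7%).

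Members that rose were found with and without either feature of the start region. With a pyrimidine run at the start, 11 of 27 members tested rose in pBIC against YC, with a median log2 fold change of 0.59, and without it 15 of 31 rose, with a median of 0.63. With CCGGAAG, 12 of 23 rose at a median of 0.66, and without it 14 of 35 at 0.59, where 11.8% of all genes were called higher. No test was made between these subsets.

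Some members varied widely between the pBIC mice. Rps12, a small subunit protein on chromosome 10, measured 1240, 941 and 1170 CPM in YC, 1220, 1530 and 1730 in BIC and 2850, 2130, 2560, 1090, 1850 and 4020 in pBIC 1 to 6. The pBIC libraries thus ran from inside the YC range to far above it. Its log2 fold change against YC of 1.11 ± 0.33 (adjusted p = 0.0320) was the highest of the called members, and the call was lost without any of YC 1 (adjusted p = 0.0818), YC 2 (0.134) or YC 3 (0.0946). Rps15, on the same chromosome, was likewise highest in pBIC 6 at 2150 CPM and pBIC 1 at 1780 CPM and lowest within pBIC in pBIC 4 at 874 CPM. Rpl15, on chromosome 14, was highest in pBIC 2 at 981 CPM and pBIC 5 at 875 CPM, against 394 to 618 CPM in the other 4. Rps28, on chromosome 17, was highest in pBIC 1 at 793 CPM.

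In some libraries these differences between mice ran along chromosomes. For each library, every member's log2 difference from the YC mean, taken relative to the median member of that library, was set against the median log2 difference of the other genes of its chromosome. Over the 76 members Pearson's r was 0.76 in pBIC 1, 0.59 in pBIC 6, 0.52 in BIC 3, 0.48 in pBIC 4 and 0.25 in pBIC 2. In the other 7 libraries, YC included, it lay between -0.13 and 0.05. Among them were BIC 1 and BIC 2 (-0.03 each), pBIC 3 (-0.04) and pBIC 5 (0.05). The points share a library and, within a chromosome, the same x value, so r is a description only. In pBIC 6 the other genes of chromosome 10 lay 0.58 above the YC mean and in pBIC 1 0.28 above it, while in pBIC 4 they stood at -0.26, and Rps12 and Rps15 were highest in pBIC 6 and pBIC 1 and lowest in pBIC 4. In pBIC 3, however, those genes stood at -0.24 and Rps12 was at 2560 CPM, above its level in pBIC 2 and pBIC 5. On chromosome 14 the values were 0.50 in pBIC 2 and 0.46 in pBIC 5, the libraries high for Rpl15. Rps24, on the same chromosome, stood at 0.31 relative to the median member in pBIC 2 but at 0.04 in pBIC 5. Chromosome 17 stood at 0.44 in pBIC 1, the library high for Rps28, and chromosome 15, which carries Rpl3, Rpl8, Rpl30 and Rpl37, at 0.37 in BIC 3. Rps27 was low in all pBIC libraries whether the other genes of chromosome 3 stood at -0.22, as in pBIC 1, or at 0.16, as in pBIC 4. Why genes of a chromosome moved together was not tested.

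**Figure D5:**
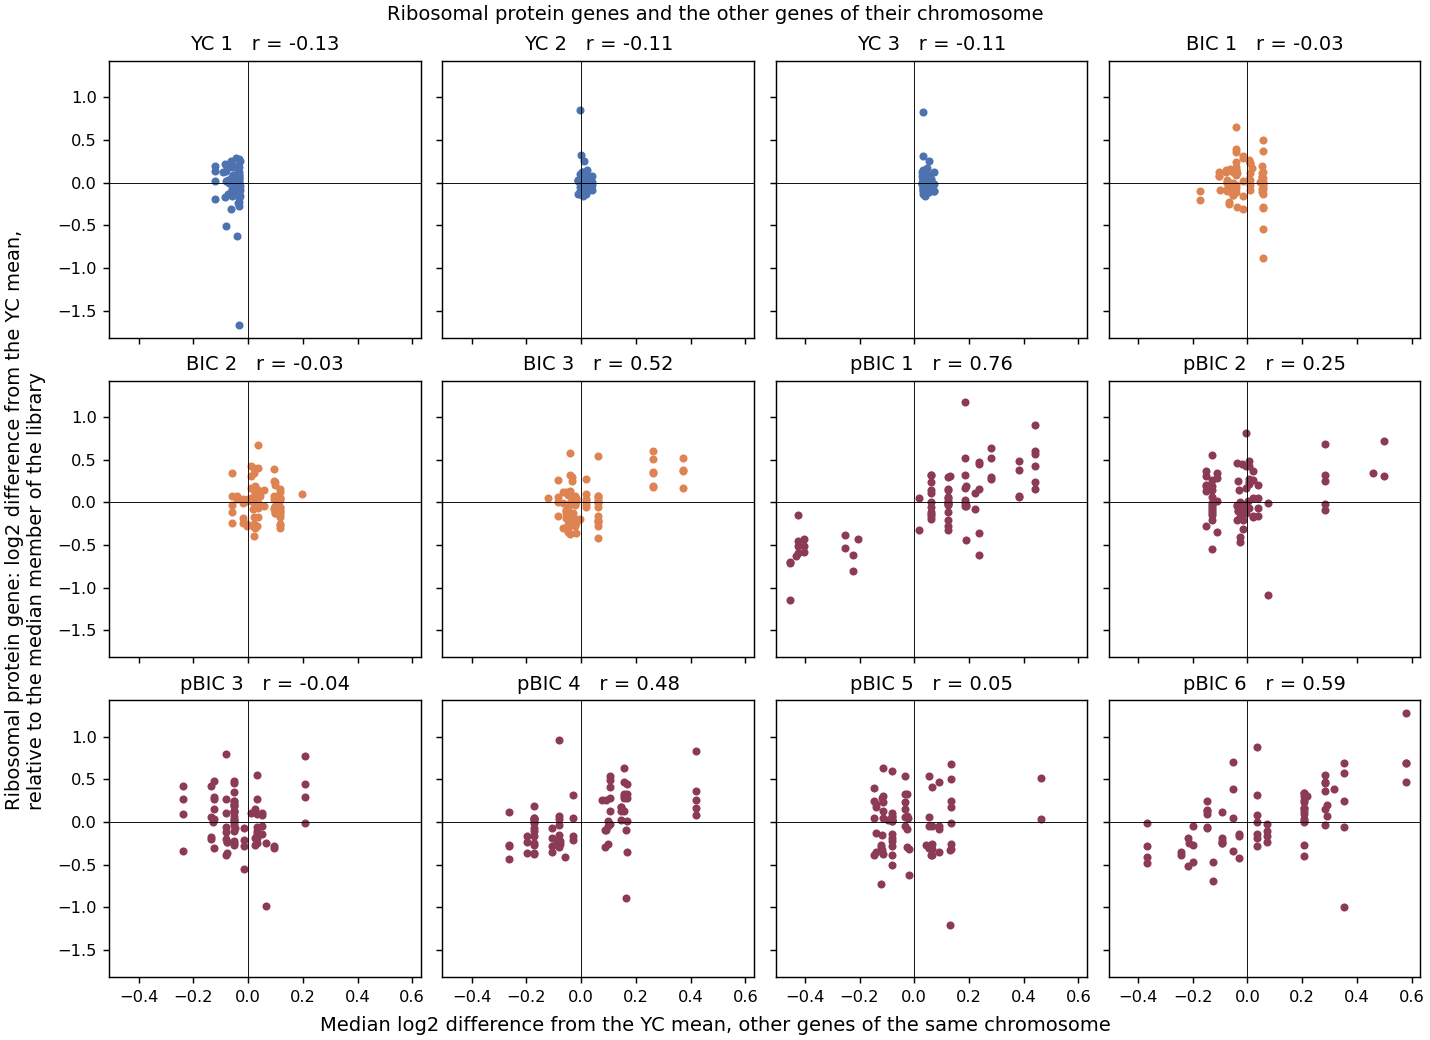
Log2 difference of each of the 76 members from the YC mean, relative to the median member of the library (y axis), against the median log2 difference of the other genes of its chromosome (x axis), 1 panel per library. Members follow their chromosome in pBIC 1 (r = 0.76), pBIC 6 (0.59), BIC 3 (0.52) and pBIC 4 (0.48), and the x values of the YC libraries barely spread.

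The X-linked members were close in level in BIC and pBIC. Rps4x, the X-linked form of a small subunit protein, measured 1340, 1310 and 1580 CPM in YC, 1710, 2120 and 1930 in BIC and 1640 to 2510, median 1890, in pBIC, with 0.47 ± 0.17 for pBIC against YC (adjusted p = 0.0639). It passed there with DESeq2 (adjusted p = 0.0476) and without pBIC 1 (0.0419) or pBIC 4 (0.0476). Rpl36a rose against YC by 0.82 ± 0.21 (adjusted p = 0.0152), lost without YC 1 (adjusted p = 0.0831) or YC 2 (0.0739). Rpl10, which joins the large subunit late in its maturation, and Rpl39 did not pass in pBIC against YC (0.43 ± 0.22, adjusted p = 0.179, and 0.33 ± 0.16, adjusted p = 0.162). Against BIC the values of these 4 genes lay between -0.17 and 0.11. Xist, the RNA of the inactive X chromosome, was at 0.0845 to 5.13 CPM in YC, 1680 to 1830 CPM in BIC, and in pBIC at 1490 to 2630 CPM in libraries 2, 4 and 5 and 2.58 to 4.22 CPM in the rest. In BIC against YC the Xist difference coincides with the groups, so the Xist difference and the group difference cannot be told apart there. The part of this difference between the mice in the values of members, X-linked or not, was not tested.

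In BIC against YC the highest values among well-counted members were those of Rps19, Rpl38, Rpl36a, Rpl36 and Rps28, at 0.72 to 0.66, and the lowest those of Rpl28 (-0.12 ± 0.24), Rps20 (-0.00 ± 0.20) and Rpl13a (0.05 ± 0.28). Rps19, a small subunit protein, had 686, 890 and 1110 CPM in YC and 1370, 1390 and 1670 CPM in BIC, groups that did not overlap (0.72 ± 0.24, adjusted p = 0.0879). Rpl36, of the large subunit, came closest to the threshold (0.69 ± 0.20, adjusted p = 0.0553). With DESeq2 and in the 2-group fit both passed (Rps19 adjusted p = 0.0418 and 0.0242, Rpl36 0.0146 and 0.0194). Without pBIC 4 both passed as well (0.0478 and 0.0382). Rpl36 also passed with other scalings (0.0384 to 0.0473) and without pBIC 1 (0.0423) or pBIC 6 (0.0484). Rpl28, also of the large subunit, had 450, 915 and 734 CPM in BIC, where BIC 1 was below all other 11 libraries. It rose in pBIC against BIC by 0.76 ± 0.22 (adjusted p = 0.0314), and without BIC 1 the value was 0.52 (adjusted p = 0.136). That call was also lost without BIC 3 (adjusted p = 0.0836) or pBIC 3 (0.0541). Rpl13a rose against BIC by 0.82 ± 0.25 (adjusted p = 0.0399) at 28.8 to 49.3 CPM in BIC and 50.8 to 94.1 CPM in pBIC, with the call lost without any of 9 of the 12 libraries (adjusted p up to 0.183). Rpl7a rose by 0.59 ± 0.19 (adjusted p = 0.0484), lost without any of 10 libraries (adjusted p up to 0.180).

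Rpl23a, a large subunit protein at the tunnel exit, showed what 1 library can do. It was at 29.9 CPM in YC 1, 171 in YC 2, 208 in YC 3, 178 to 238 in BIC and 238 to 385 in pBIC. The pBIC values lay above all YC values, with 1.10 ± 0.44 for pBIC against YC (adjusted p = 0.0928), and without YC 1 the log2 fold change was 0.63. With DESeq2 Rpl23a passed in that comparison (1.08, adjusted p = 0.0469). Rps28 was also lowest in YC 1, at 157 CPM against 297 and 361 in the other YC libraries, and its rise in pBIC against YC (0.97 ± 0.28, adjusted p = 0.0285) was lost without YC 1 or YC 2 (adjusted p up to 0.117). The deposited table of YC 1 names an input folder in another pattern than the other 11, and no label states whether it was handled differently.

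Paralogues with tissue-restricted roles were almost absent. Rpl10l, a form known from testis, had 0 counts in all 12 libraries, which allows a share of up to 6.12e-07% of all counts. Rpl39l, also known from testis, had 42 counts in all, of which 30 were in BIC 2, and was not tested. Rpl3l, the heart and skeletal muscle form of Rpl3, had 4 counts over YC, 7 over BIC and 79 over pBIC, with 32 in pBIC 3, 24 in pBIC 1 and 0 in pBIC 5, and did not pass (adjusted p = 0.125 for pBIC against YC). Rpl36al, a paralogue of Rpl36a with ordinary expression, was at 103, 99.9 and 121 CPM in YC and 109 to 213 CPM in pBIC (0.53 ± 0.24, adjusted p = 0.132). Of the 4 members with under 2000 counts in all libraries, only Rpl24 is a core member of the ribosome.

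The count of calls was read with sequence sharing in view. Among members with under 20% of windows and of exon bases shared, a subset chosen after the data were seen, 10 of 29 tested rose in pBIC against YC (34.5%) at a median of 0.59. Among the other 49, 27 rose (55.1%) at a median of 0.68. Of all genes 11.8% were called higher, and their median was 0.10. Both the share called and the median of members were lower in the subset with little shared sequence. The part of shared sequence in these calls was not tested.

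Genes that work with the ribosome are given beside a background of 11.8% of all genes called higher and 10.2% lower in pBIC against YC (median 0.10), 10.9% and 8.78% in pBIC against BIC (median 0.09), and 3.9% and 4.97% in BIC against YC. Of 36 initiation factor genes 23 rose and 0 fell in pBIC against YC, with a median of 0.74, and 18 rose against BIC, with a median of 0.69. Examples against YC were Eif2b3 of the exchange factor eIF2B (1.68 ± 0.23, adjusted p = 0.000620) and Eif3i and Eif3b of the eIF3 complex (1.07 ± 0.16 and 1.39 ± 0.23, adjusted p = 0.000960 and 0.00172). In BIC against YC 0 rose and 1 fell, Eif5, a GTPase activator of the initiation complex (-1.04 ± 0.24, adjusted p = 0.0219). Of 17 elongation and other TOP-type genes 14 rose in pBIC against YC and 6 against BIC. Npm1, the nucleolar chaperone nucleophosmin, averaged 688 CPM in YC, 736 in BIC and 2310 in pBIC (1.75 ± 0.27 against YC, adjusted p = 0.00125), and the translation factor Eif5a 464, 496 and 1380 CPM (1.57 ± 0.26, adjusted p = 0.00198). Vim, the intermediate filament gene vimentin, was the 1 gene of this list to rise in BIC against YC (1.57 ± 0.31, adjusted p = 0.0111).

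Of 20 mTORC1 and TOP regulator genes 7 rose and 0 fell in pBIC against YC, among them Larp1 (1.11 ± 0.20, adjusted p = 0.00299) and Eef2k, the kinase of the elongation factor eEF2 (2.22 ± 0.51, adjusted p = 0.00936). Eef2k also rose in BIC against YC (2.14 ± 0.55, adjusted p = 0.0319), where 1 gene of this list rose and 0 fell. In pBIC against BIC it gave 0.08 ± 0.45 (adjusted p = 0.923). Of the list 3 rose and 1 fell in pBIC against BIC, near the 10.9% and 8.78% of all genes. Mtor stood there at 0.60 ± 0.13 (adjusted p = 0.0104) and Rps6ka3, a ribosomal S6 kinase of the RSK family, at -0.80 ± 0.20 (adjusted p = 0.0180). Of 15 ribosomal protein chaperone and import genes tested 8 rose against YC and 8 against BIC, with medians of 0.74 and 0.76. The importin Ipo7 rose by 1.07 ± 0.16 (adjusted p = 0.00115) and 1.30 ± 0.16 (adjusted p = 0.000851), and Heatr3, which serves the import of Rpl5, by 1.72 ± 0.28 (adjusted p = 0.00176) and 1.26 ± 0.28 (adjusted p = 0.00924). Of the 7 ribosomal proteins and paralogues outside the symbol rule Rack1, Rpl7l1 and Rps27l rose in pBIC against YC and 0 in the other comparisons, and Fau, encoding a fusion of a ubiquitin-like protein with a small subunit protein, gave -0.20 ± 0.18 (adjusted p = 0.440). Myc averaged 396 CPM in YC, 315 in BIC and 899 in pBIC. It rose in pBIC against BIC (1.51 ± 0.43, adjusted p = 0.0299) and did not pass against YC (1.18 ± 0.42, adjusted p = 0.0646).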

How the data were processed

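Per the file headers, the deposited counts were made by the authors with featureCounts 1.5.0 over GENCODE M13 exons grouped by gene. No option for read pairs, strand or multi-mapping reads was set, so mates were counted separately and multi-mapped reads were left out. The submitters' processing notes name FastQC, STAR, edgeR and limma and the builds mm10 and GRCm38, and the aligner's version is not given in the sources used here. Libraries were 100-base read pairs, per the labels' protocols, and replicates are separate mice, per the design text.

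Counts were tested with edgeR 4.0.16 (R 4.3.3; TMM, default expression filter with a minimum count of 10, robust quasi-likelihood fit and its F test). All 12 libraries entered with a coefficient for each group, and p was adjusted over 17754 genes by Benjamini-Hochberg. SE is the absolute log2 fold change over the square root of F. The script was tested on simulated data. DESeq2 1.42.0, other scalings and filters, a 2-group fit and leaving out libraries were alternatives. Biotypes and shared sequence came from GENCODE M21, which matched 50462 identifiers. Intervals cover counting error only.

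The members and lists were chosen with earlier results of these data known. Named genes were Rpl5, Rpl11, Rpl23, Rps7 and Rpl26 (linked to MDM2 or p53 mRNA), the stalk genes, Rpsa, Rps6, the X-linked members, the paralogues, the 3 members with the most counts, and per comparison the 6 highest and 6 lowest log2 fold changes and the 4 smallest p, with up to 3 genes per other list by p. Members used as examples of a call or of a chromosome beyond this rule (Rpl7a, Rps15, Rpl32, Rps24, Rpl8, Rpl3, Rpl30, Rpl37, Rpl35, Fau) were chosen after their values were seen. Rps4l, named in the rule, is no member and is not reported. Some genes that the rule chose are not reported here, and counts include them.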

Additional observations from a re-analysis of the deposited data

Results flagged for a closer look

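Of 41 group values examined in pBIC, 1 stood apart. Rps28 in pBIC 1, at 793 CPM, lay far from the other 5 pBIC libraries, which ran from 444 to 531 CPM, and its gap to the nearest of them was 0.75 of the whole range, above the critical value of 0.625 for 6 libraries. Chance flags about 1 in 20 groups, so 1 of 41 is no excess. The other genes of its chromosome were also high in that library, at 0.44 on the log2 scale, as given in the report. The part of this in the Rps28 value was not tested.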

How the results depend on the processing

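Medians over the members kept their direction in every alternative. In pBIC against YC the number of members higher was 33 to 51 under the alternatives that leave out no single library. The 33 came without a filter on low counts (4.41% of all genes) and the 51 with DESeq2 (16.8%). With each library left out in turn it was 11 to 51, from 11 without YC 2 (4.7%) to 51 without pBIC 4 (13.1%). In BIC against YC it was 5 with DESeq2 (8.22% of all genes) and 16 with only the 2 groups compared (14.6% of all genes). It was 1 with TMM factors computed without ribosomal protein genes (4.07%), without TMM factors (3.78%) or with upper-quartile factors (4.17%). With libraries left out it was 0 to 3, the 3 without pBIC 4 (4.33%). In pBIC against BIC it was 11 with DESeq2 (15.4% of all genes) or without TMM factors (10.5%). It was 1 without a filter on low counts (3.68%) and 2 with only the 2 groups compared (7.99%). With libraries left out it was 1 to 16, such as 1 without BIC 1 (3.97%) and 16 without pBIC 4 (11.1%). The number lower was 0 to 1 then. The cause was not tested, except that the 2-group fit drops libraries by construction.

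The replicate numbers gave no sign of pairing the mice. Deviations of same-numbered libraries correlated at -0.095 to 0.155, and those of differently numbered libraries at -0.179 to 0.166. With 3 libraries per group, these values cannot exclude a pairing. A replicate block over the libraries numbered 1 to 3 gave 42 members higher in pBIC against YC, against 48 without the block on the same 9 libraries, 1 and 1 in BIC against YC, and 7 and 11 in pBIC against BIC, where the number lower was 0 in both.

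Of 1044 alternatives of 53 named gene results, 941 kept direction and call, 45 lost a call, 32 gained it and 26 changed sign. Apart from Rpl3l, signs changed for values near 0. For Rps20 in BIC against YC the values were 0.02 with TMM factors computed without ribosomal protein genes and with only the 2 groups, 0.03 without a filter, 0.04 with upper-quartile factors and -0.09 to 0.08 with libraries left out. In the same comparison Rpl13a reached -0.09 to 0.24, Rpl15 -0.04 to 0.18, Rpl28 -0.32 to 0.12 and Rpl3l, with few counts, -0.37 to 1.92. Rpl37a reached -0.02 to 0.19 in pBIC against YC with libraries left out. In pBIC against BIC, Rpl17 gave 0.02 without and 0.00 with the block, and Rpl34 0.01 without the block and -0.25 to 0.00 with libraries left out.

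With 3 mice in YC and BIC the number of calls rests on single libraries, and depth does not limit members above 20 CPM. Rpl24, Rpl3l, Rpl10l and Rpl39l are too low to compare.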

Other observations

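The tested genes outside the family whose log2 CPM ran most closely with the mean of the members over the 12 libraries were Rack1 (r = 0.975), the pseudogene Rpl10a-ps1 (0.963), Bola2 (0.955), Platr27 (0.953) and the pseudogene Rpl14-ps1 (0.949). Rack1, a scaffold protein of the small subunit, averaged 1560 CPM in YC, 2030 in BIC and 2640 in pBIC. Rpl10a-ps1 stood at 9.62, 13.4 and 17.2 CPM and Rpl14-ps1 at 6.09, 9.84 and 14 CPM, and reads of such copies cannot be told apart from those of the parent gene where the sequence is the same. Bola2 averaged 28.1, 45.6 and 55.9 CPM and Platr27 0.459, 2.0 and 4.92 CPM. The libraries share group differences and scaling, so these coefficients only describe the 12 libraries.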
